A study of Mus musculus with 4 samples.

Results

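The 10 surface antigen genes followed here, by which early T cells are staged, were measured in single-cell RNA libraries of mouse pro-T cells: Cd34, Cd44, Cd24a, Ly6d, Cdh1, Thy1, Epcam, Cd7, Cd2 and Cd5. They were chosen by symbol, and all 10 were found once among the 31053 genes of the deposited tables. The study grew bone marrow progenitors with IL-7 and Flt3-ligand (10 ng/ml for each) on OP9-Dll1 stroma, which displays the Notch ligand Dll1, and asked what Runx1 and Runx3 dosage does to the first steps of T-cell development. In the overexpression arm, progenitors of B6.Bcl2 transgenic mice aged 8 to 10 weeks received MSCV-Runx1-mCherry or MSCV-empty-mCherry on day 2, and live mCherry+ CD45+ cells without lineage markers were sorted on day 4 or 6. In the double knockout arm, progenitors of B6.Cas9;Bcl2 transgenic mice, whose age the labels do not give, received guide RNA vectors on day 2. These were E42-gRunx1-humanNGFR and E42-gRunx3-mTurquoise, with 3 guide pairs per gene, or the same vectors with guides to luciferase, and mTurquoise+ hNGFR+ CD45+ cells without lineage markers were sorted on day 5 or 8. All cells, controls included, thus carried a Bcl2 transgene, and those of the knockout arm also Cas9; the promoter of the transgene is not given in the labels. Cultures lasted 4 to 5 days in experiment 1 and 4 to 8 days in experiment 2, each with 1 mRNA library and 1 hashtag library. Per the labels the cells were Kit-high progenitors of the first phase of T-cell development.

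Each culture was stained with 1 hashtag oligonucleotide before pooling. The 8 oligonucleotides are shown because the deposited tables name the cultures by nothing else, and the same 8 were used in both experiments. They are numbered here in the order of the table columns.
Hashtag 1: acccaccagtaagac
Hashtag 2: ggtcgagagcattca
Hashtag 3: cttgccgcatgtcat
Hashtag 4: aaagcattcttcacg
Hashtag 5: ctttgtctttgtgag
Hashtag 6: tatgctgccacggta
Hashtag 7: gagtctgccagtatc
Hashtag 8: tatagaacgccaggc
No label ties an oligonucleotide to a vector, a guide or a harvest day. A hashtag is therefore treated below as 1 culture of unknown condition, hashtag 1 of experiment 1 and hashtag 1 of experiment 2 are not matched, and no hashtags were grouped or tested. Values are given for each culture with 95% intervals (exact Poisson for a level, exact conditional for a ratio, Clopper-Pearson for a share of cells), which cover counting error only.

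In the mouse thymus, CD4- CD8- cells are ordered by surface antigens. The earliest progenitors carry KIT, CD44 and CD34, cells that turn to the T lineage gain CD25, the product of Il2ra, and later lose KIT and CD44. THY1 and CD24 rise along the same path, and LY6D marks B-cell-biased lymphoid progenitors in bone marrow. CD5, CD7 and CD2 are receptors of T and natural killer cells, and E-cadherin (Cdh1) and EpCAM are adhesion molecules best known from epithelia.

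After filtering, 8797 cells of experiment 1 and 8335 cells of experiment 2 carried a single hashtag, with medians of 24753 and 26338 unique molecular identifiers (UMIs) per cell. The 16 cultures held 691 to 1312 cells and 14502385 to 42684236 UMIs each. Median UMIs per cell ran from 18057.5 in hashtag 7 of experiment 1 to 31961 in hashtag 1 of experiment 2, so shares of cells with a UMI are also given after thinning. Between the libraries 39 cell barcodes were shared, and 28 of them were single cells in both. Kit had 54.3 to 89.0 counts per 1000000 UMIs (CPM) across the cultures of experiment 1 and 26.4 to 56.5 CPM across those of experiment 2. After every cell was thinned to 10000 UMIs, 38.1 to 57.9% of the cells of a culture had a Kit UMI in experiment 1 and 21.0 to 40.4% in experiment 2. Kit transcript was thus detected in part of the cells of each culture, all of which the labels call Kit-high.

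Levels of the 10 genes differed widely between cultures (the plot of level by hashtag). A ratio of the highest to the lowest culture was computed for genes whose mean reached 5 CPM and whose lowest culture held 10 UMIs or more, and a gene was counted when the ratio was at least 2. In experiment 1, 9 of the 10 genes passed the minimum and 7 reached 2 (Thy1, Cd24a, Cd34, Cd7, Ly6d, Cdh1 and Epcam), where 10.7% of all genes past the minimum did so. In experiment 2, all 10 passed and 9 reached 2, against 17.2% of all genes. Their median ratio was 3.22 in experiment 1 and 6.12 in experiment 2, and that of all genes was 1.31 and 1.37. Cdh1 in both experiments and Cd2 in experiment 2 had under 5 CPM in their lowest cultures and passed the minimum through their high cultures, so that their ratios are in part fixed by it. Of the other 8 genes, 6 reached 2 in experiment 1 and 7 in experiment 2. Levels are sums over all cells of a culture, in which fewer cells of a type and less RNA per cell cannot be told apart. Counts are from the 3' end of transcripts, and levels of different genes are not compared with each other.

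**Figure D1:**
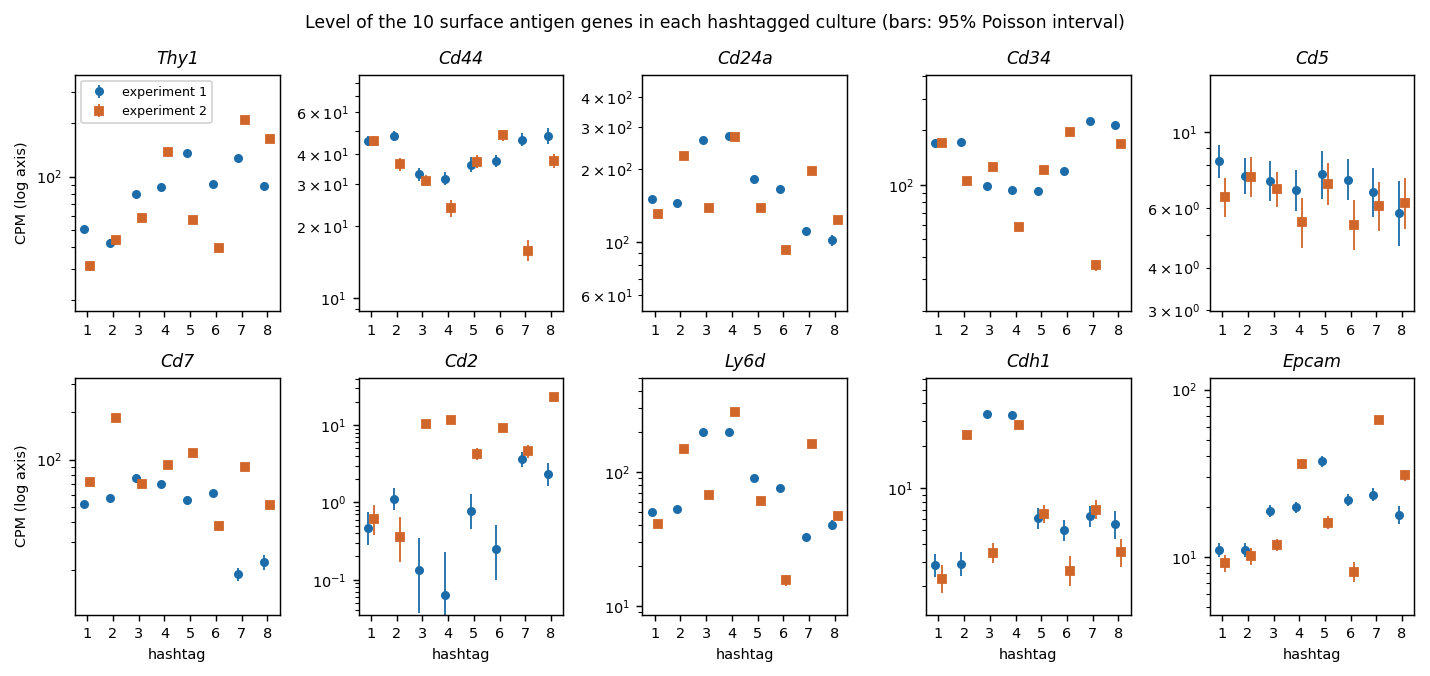
Level of each surface antigen gene (CPM, log axis) in the 8 hashtagged cultures of experiment 1 (circles) and experiment 2 (squares); bars are exact 95% Poisson intervals. Cdh1 stands at 33.8 and 33.1 CPM in hashtags 3 and 4 of experiment 1 and at 23.8 and 28.2 CPM in hashtags 2 and 4 of experiment 2, apart from the other cultures, while the intervals of Cd5 overlap for most pairs of cultures.

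Cd34 (chr1:194938821-194961292 in GRCm38.p6; all 10 genes are protein-coding in RefSeq), a sialomucin of haematopoietic progenitors, ran from 92.5 CPM in hashtag 5 over a median of 144 to 226 CPM in hashtag 7 of experiment 1. In experiment 2 it ran from 36.0 in hashtag 7 over a median of 124 to 196 CPM in hashtag 6. Its ratios were 2.45 (2.32 to 2.58) and 5.45 (5.07 to 5.87). The latter rested on hashtag 7, without which it was 3.37. Cd44 (chr2:102811141-102901669), the hyaluronan receptor whose loss marks commitment, was among the steadier of the 10 genes, though above the median ratio of all genes (1.31 and 1.37) in both experiments. It ran from 31.6 in hashtag 4 over 41.6 to 47.9 CPM in hashtag 2 of experiment 1, a ratio of 1.51 (1.40 to 1.64). Experiment 2 spanned 15.8 in hashtag 7 over 36.8 to 48.1 CPM in hashtag 6, a ratio of 3.04 (2.71 to 3.42). Without hashtag 7 that ratio was 2.02. Both progenitor antigens were thus lowest in the same culture of experiment 2 and highest in the same culture. That culture of lowest level had 19.2% of its cells with a Cd34 UMI at 10000 UMIs per cell and 14.0% with a Cd44 UMI.

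Over the 16 culture sums, with the mean of each experiment removed from log2(CPM + 1), Cd34 and Cd44 had a Pearson correlation of 0.95, and 0.94 and 0.96 within experiments 1 and 2. These correlations describe sums that share a library and a depth, and carry no test. For both genes Mef2c, a transcription factor of lymphoid progenitors, was the nearest of 4965 genes that averaged 20 CPM or more in each experiment, at 0.96 with Cd34 and 0.97 with Cd44. The next genes were Pou2f2 (0.95) and Slc25a4 (0.95) for Cd34, and Slc25a4 (0.95) and Cd34 itself for Cd44.

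The promoter windows of these 2 genes, and of Epcam, whose detection in cells ran against theirs, are printed as the 250 bases before the RefSeq start site. Promoters of 4 of the 10 genes (Cd34, Cd44, Cd5 and Epcam) were matched in the table used. The windows are chr1:194938571-194938820 on the + strand for Cd34, chr2:102901666-102901915 on the - strand for Cd44 and chr17:87635729-87635978 on the + strand for Epcam, all in GRCm38.p6. Capitals mark matches on either strand to the RUNX motifs TGTGGT and TGCGGT, the E boxes CAGGTG and CAGCTG, and the GATA motif AGATAA, none of which overlap here.
Cd34: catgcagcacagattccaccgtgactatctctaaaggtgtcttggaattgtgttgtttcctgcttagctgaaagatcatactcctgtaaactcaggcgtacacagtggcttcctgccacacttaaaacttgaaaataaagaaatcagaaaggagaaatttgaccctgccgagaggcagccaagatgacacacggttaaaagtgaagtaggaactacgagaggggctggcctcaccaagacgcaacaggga
Cd44: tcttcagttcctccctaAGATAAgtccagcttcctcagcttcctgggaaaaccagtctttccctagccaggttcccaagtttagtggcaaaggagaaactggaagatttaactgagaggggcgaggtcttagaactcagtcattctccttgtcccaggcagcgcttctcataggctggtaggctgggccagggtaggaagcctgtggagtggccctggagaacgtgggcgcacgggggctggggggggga
Epcam: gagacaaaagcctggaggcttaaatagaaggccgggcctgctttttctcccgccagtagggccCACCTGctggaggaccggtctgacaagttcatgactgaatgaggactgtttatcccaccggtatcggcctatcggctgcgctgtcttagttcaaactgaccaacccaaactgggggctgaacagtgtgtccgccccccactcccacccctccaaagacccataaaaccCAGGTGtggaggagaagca
The Cd34 window held none of these letters. The Cd44 window held AGATAA at base -233 from the start site, and the Epcam window held CAGGTG at -19 and its reverse complement at -187. The Cd5 window held CAGGTG at -69 and, on the other strand, at -174, and TGCGGT on the other strand at -133. Of all 32851 windows of the same length, 17.2% held CAGGTG, 13.001% CAGCTG, 14.0% TGTGGT, 5.10% TGCGGT and 9.99% AGATAA. A match is a description of the letters, not a binding site.

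Cd24a, Ly6d and Cdh1 shared their highest cultures in part: hashtags 3 and 4 had the highest levels of all 3 in experiment 1, and hashtag 4 in experiment 2. Cd24a (chr10:43579169-43584265), which encodes heat-stable antigen, ran from 101 in hashtag 8 over 158 to 276 CPM in hashtag 4 of experiment 1, and from 92.6 in hashtag 6 over 138 to 272 CPM in hashtag 4 of experiment 2. The ratios were 2.72 (2.57 to 2.87) and 2.94 (2.81 to 3.08). Ly6d (chr15:74762056-74763567), a GPI-anchored Ly6 protein, spread further. It ran from 32.8 in hashtag 7 over 64.1 to 198 CPM in hashtag 4 of experiment 1, with 198 CPM in hashtag 3 as well. In experiment 2 it ran from 15.5 in hashtag 6 over 63.9 to 281 CPM in hashtag 4, with 163 CPM in hashtag 7, above the 149.5 CPM of hashtag 2. Its ratios were 6.04 (5.60 to 6.54) and 18.1 (16.4 to 20.1), the latter 10.5 without hashtag 4 and 6.90 without hashtag 6.

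Cdh1 (chr8:106603350-106670247), which encodes E-cadherin, split the cultures sharply. Hashtags 3 and 4 of experiment 1 had 33.8 and 33.1 CPM, and the other 6 cultures had 2.84 to 6.31 CPM. Hashtags 2 and 4 of experiment 2 had 23.8 and 28.2 CPM, and the other 6 had 2.27 to 7.01 CPM. The intervals of the high and low cultures did not overlap in either experiment. As the cultures were called high or low from these same levels, this is a description and not a test. The ratio of highest to lowest was 11.9 (9.76 to 14.7) in experiment 1 and 12.4 (9.79 to 15.8) in experiment 2. By cells, 45.05 and 45.9% had a Cdh1 UMI in the 2 high cultures of experiment 1, and 5.93 to 10.3% in the others. After thinning to 10000 UMIs these shares were 24.8 and 25.4% against 2.26 to 4.74%.

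Across the 16 cultures Cd24a and Ly6d had a Pearson correlation of 0.97, Cd24a and Cdh1 0.84, and Ly6d and Cdh1 0.84. Each of the 3 ran against Cd34, at -0.81 for Cd24a, -0.86 for Ly6d and -0.59 for Cdh1. The genes nearest in pattern were Bace1 (0.99), Cd72 (0.99) and Ezr (0.98) for Cd24a, Patz1 (0.99), Myb (0.99) and Crip1 (0.98) for Ly6d, and Wbp1, Pafah1b3 and Jak1 (each 0.97) for Cdh1. The cultures high in Cdh1 also had many cells of clusters called committing T lineage-like from marker genes: 35.6 and 34.0% of hashtags 3 and 4 of experiment 1, and at most 0.176% of any other culture there. In experiment 2 the share was 74.1% of hashtag 2 and 63.2% of hashtag 4, but also 45.4% of hashtag 7, in which Cdh1 had 7.01 CPM. The summed level of the 9 markers of that class ran from 407 to 1059 CPM over the first 8 cultures and from 233 to 1829 CPM over the other 8. It was highest in hashtag 4 of both, and no marker was at 0. In experiment 1, hashtag 5, which was low in Cdh1, had 1024 CPM, near the 991 CPM of hashtag 3, and 0 cells in a cluster of that name. Cluster 1 of experiment 1 (1327 cells from all 8 cultures) stayed unnamed, with 2 of the markers among its 50 leading genes. So did cluster 7 of experiment 1 (817 cells), also with 2 of them, in which Cdh1 had 39.5 CPM. The shares thus depend on which clusters took a name. The part of such cells in these differences was not tested.

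Thy1 and Epcam went together across cultures. Thy1 (chr9:44043384-44048579), a GPI-anchored protein on thymocytes, ran from 42.03 in hashtag 2 over 87.9 to 136 CPM in hashtag 5 of experiment 1. Over experiment 2 it ran from 31.0 in hashtag 1 over 57.4 to 210.5 CPM in hashtag 7. The ratios were 3.22 (3.03 to 3.43) and 6.79 (6.35 to 7.26). At 10000 UMIs per cell, 17.6% of the cells of hashtag 1 of experiment 2 and 68.8% of those of hashtag 7 had a Thy1 UMI. Epcam (chr17:87635979-87651127), an adhesion molecule, ran from 10.98 in hashtag 1 over 19.3 to 37.3 CPM in hashtag 5 of experiment 1, and from 8.16 in hashtag 6 over 13.9 to 65.5 CPM in hashtag 7 of experiment 2. Its ratios were 3.39 (3.01 to 3.83) and 8.03 (6.96 to 9.30). Without hashtag 5 the first was 2.15, and without hashtag 7 the second was 4.40.

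Thy1 and Epcam were highest in the same culture in both experiments and had a correlation of 0.96 over the 16 cultures (0.95 and 0.97 within experiments). With Cd24a, Thy1 had only 0.25, and with Cdh1 0.27. Genes nearest to Thy1 were Trdc (0.98), the constant gene of the T-cell receptor delta chain, and Rras2 (0.97), and those nearest to Epcam besides Thy1 were Mier1 (0.97) and Ifngr1 (0.96). The members thus fell into 3 sets across cultures: Cd34 with Cd44, Cd24a with Ly6d and Cdh1, and Thy1 with Epcam.

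The receptors of T and natural killer cells behaved each in its own way. Cd7 (chr11:121036747-121039478), an immunoglobulin superfamily receptor, was lowest in hashtags 7 and 8 of experiment 1, at 18.8 and 22.3 CPM, and had 52.0 to 76.5 CPM in the other 6 cultures. In experiment 2 it ran from 37.9 in hashtag 6 over 80.8 to 183 CPM in hashtag 2. The ratios were 4.06 (3.66 to 4.52) and 4.84 (4.52 to 5.18), the latter 2.92 without hashtag 2. Cd244 (0.95), Gna15 (0.94) and Apopt1 (0.93) were nearest to it in pattern, and among the members Cd24a at 0.81. Cd5 (chr19:10718107-10739026), which dampens T-cell receptor signals, was nearly level. It had 5.79 to 8.22 CPM in experiment 1 (ratio 1.42, 1.11 to 1.83) and 5.35 to 7.41 CPM in experiment 2 (1.39, 1.11 to 1.73), and its nearest gene, Twistnb, reached only 0.77.

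Cd2 (chr3:101275908-101287939), an adhesion receptor that binds CD48 in the mouse, was low in experiment 1. There it had 0.0638 to 3.65 CPM, with 2 UMIs in the lowest culture, and no ratio is given. In experiment 2 it ran from 0.353 in hashtag 2 over 6.94 to 22.8 CPM in hashtag 8, a ratio of 64.6 (34.8 to 135.6) that rests on 10 UMIs in the lowest culture. It was 37.2 without hashtag 2 and 32.7 without hashtag 8. Few cells carried it: at most 15.7% of the cells of a culture had a Cd2 UMI, and in hashtags 5 and 6 of experiment 2 the 5 cells with most Cd2 UMIs held 71.1 and 61.9% of them.

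Cells of other lineages were present in these cultures. The summed level of 10 granulocyte or monocyte markers ran from 277 to 1573 CPM across experiment 1, and in experiment 2 from 219 in hashtag 7 to 12378 CPM in hashtag 6, the culture that was lowest in Ly6d, Cd24a, Cd7 and Epcam and highest in Cd34 and Cd44. Hashtag 7, with the least, was the highest in Thy1 and Epcam and the lowest in Cd34 and Cd44. These 2 cultures also differed in early progenitor-like cells, which made up 36.3% of hashtag 6 and 0% of hashtag 7. The part of any of these cells in the differences was not tested. The sums of 9 stromal markers ran from 1.23 to 65.5 CPM and from 147 to 747 CPM, and those of 7 B-lineage markers from 30.03 to 36.8 and from 44.8 to 154 CPM. No marker of any of these lists was at 0 in either experiment. When cells of clusters named as other lineages were left out, 7 of the genes still reached 2 in experiment 1 and 8 in experiment 2, where Cd2 no longer passed the minimum. This left 7942 and 7392 cells. Unnamed clusters stayed in, among them in experiment 2 cluster 2 (1031 cells, led by Ms4a4c, Ms4a6c and Ctsh), cluster 0 (166 cells, led by Gzmc and Cd8b1) and clusters 3 and 11 (63 and 40 cells). In that setting Ly6d had a ratio of 20.4, Cd34 of 6.401 and Epcam of 7.27 in experiment 2.

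A list of 20 other surface genes of early T cells gives a setting for these spreads. In experiment 1, 13 passed the minimum and 7 reached 2, among them Il2ra, Il7r, Ly6a, Cd93, Itgae and Cd48. In experiment 2, 15 passed and 10 reached 2, with a median of 2.48, among them Kit (2.14), Cd28 and Cd3e. Itgae, the integrin chain that binds E-cadherin, had a ratio in experiment 1 of 29.0 (19.1 to 46.2), with 0.604 CPM in hashtag 1 and 17.5 CPM in hashtag 4, and passed the minimum through its high cultures, as did Il7r, Cd28, Itgae and Cd3e in experiment 2. Ly6a, which encodes SCA-1, had 8.60 and 13.8. Cd27, a receptor of the TNF receptor family, had 1.24 and 1.14, below both values of Cd5.

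The experiments were compared by sums over all single cells. Thy1 had 81.4 CPM in the first experiment and 84.5 CPM in the other, Ly6d 95.9 and 98.3 CPM, and Epcam 18.8 and 21.3 CPM. Cd34 had 145 and 125 CPM and Cd44 40.6 and 34.9 CPM. Of the 9 members past the minimum, none was at least 2-fold apart; among all genes 1.86% were higher by that much in experiment 2 and 0.342% lower, so a count of 0 is near the background. The median ratio of all genes was 0.899. Of these 9, Cd7 had the ratio furthest from that median, with 54.8 and 88.1 CPM, a ratio of 1.61 (1.57 to 1.64). Cd2, below the minimum in experiment 1, had 0.918 and 7.55 CPM, a ratio of 8.23 (7.11 to 9.56). Of the 20 other surface genes 15 passed the minimum, and 2 were at least 2-fold higher in experiment 2: Cd8a, with 0.335 and 10.3 CPM, and Cd3e, with 3.16 and 10.1 CPM. Each experiment is 1 library, so experiment, culture time and the mix of cultures cannot be told apart.

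Within each culture, cells with and without an Il2ra UMI were compared after thinning every cell to 10000 UMIs, which left out 573 cells of experiment 1 and 589 of experiment 2 with fewer. Il2ra was detected in 38.9 to 72.2% of the cells of a culture in experiment 1 and in 19.8 to 80.1% in experiment 2. The value for a gene is the median over the 8 cultures of the ratio of its level in cells with Il2ra to its level in cells without. A gene was counted when that median was at least 2 or at most 0.5. In experiment 1, 3 of 9 members past the minimum were at least 2-fold higher with Il2ra (Thy1, Ly6d and Epcam), against 1.68% of all genes, and none was at least 2-fold lower, against 0.935%. In experiment 2 the same 3 were higher, against 1.66% of all genes, and Cd34 was lower, against 3.33%.

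**Figure D2:**
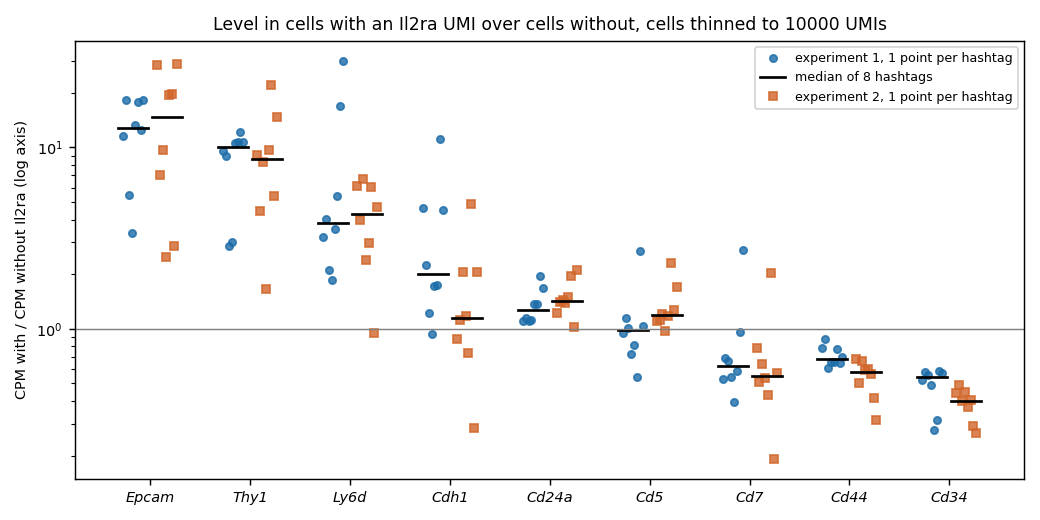
Level in cells with an Il2ra UMI divided by the level in cells without (log axis) for each surface antigen gene, 1 point per hashtag, with the median of the 8 hashtags as a bar. Epcam and Thy1 lie above 1 in every culture of both experiments, and Cd34 and Cd44 lie below 1 in every culture.

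Epcam, with a median under 5 CPM in cells without Il2ra, passed the minimum mainly through the cells with it, so its ratio is in part fixed by the minimum. In cells without Il2ra it still had 6.11 and 9.79 CPM in hashtags 3 and 4 of experiment 1. In hashtags 4 and 7 of experiment 2 it had 25.5 and 32.3 CPM in such cells. The ratios in these cultures were 5.48, 3.37, 2.47 and 2.85. The median level of Epcam was 33.2 CPM in cells with Il2ra and 2.65 CPM in cells without in experiment 1, and 47.9 and 2.90 CPM in experiment 2. The median ratio was 12.8 in experiment 1 and 14.6 in experiment 2, and Epcam was higher with Il2ra in 8 of 8 cultures of each. Leaving out hashtag 1, 5, 6 or 8 of experiment 2 brought the second value to 9.72. At 5000 UMIs per cell the ratios were 8.25 and 6.50, and with at least 2 Il2ra UMIs asked for the second was 8.20.

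Thy1 had 135 and 14.1 CPM with and without Il2ra in experiment 1, and 164 and 18.4 CPM in experiment 2. The levels did not overlap between the cell classes in experiment 1: 93.3 to 191 CPM with Il2ra and 10.5 to 44.1 CPM without. In experiment 2 they ran from 112.5 to 311 CPM with and from 7.99 to 114 CPM without, the highest of the latter in hashtag 4. The median ratios were 10.0 and 8.67, with 8 of 8 cultures higher in each experiment, and 6.10 and 5.44 at 5000 UMIs per cell. Ly6d had 115 against 28.3 CPM in experiment 1 and 142 against 30.5 CPM in experiment 2. Its ratios were 3.81 (8 of 8 cultures) and 4.31 (7 of 8, with hashtag 7 at 188 CPM with Il2ra and 198 CPM without).

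The progenitor antigens went the other way. Cd34 had 89.3 CPM in cells with Il2ra and 205 CPM in cells without in experiment 1, and 62.7 and 156 CPM in experiment 2, ratios of 0.541 and 0.401. Cd44 had 35.7 and 48.4 CPM, then 21.2 and 39.8 CPM, ratios of 0.679 and 0.578. Both were lower with Il2ra in 8 of 8 cultures of each experiment. Cd7 also had lower medians with Il2ra, 44.9 against 82.1 CPM and 69.4 against 115 CPM, at ratios of 0.624 and 0.552. It was lower in 7 of 8 cultures of each experiment, the exceptions being hashtag 8 of experiment 1 (36.2 with and 13.3 CPM without) and hashtag 6 of experiment 2 (82.8 and 40.6 CPM).

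Cd24a, Cd5 and Cdh1 were closer to even. Cd24a was higher with Il2ra in 8 of 8 cultures of each experiment, but by ratios of only 1.26 and 1.42. Cd5 had 0.983 (4 of 8 cultures higher) and 1.20 (7 of 8). Cdh1 had a median ratio of 2.00 in experiment 1, just under the threshold before rounding, and 1.15 in experiment 2. In the cultures where Cdh1 was high its level was alike in both classes of cell: hashtags 3 and 4 of experiment 1 had 39.3 and 33.4 CPM with Il2ra and 32.1 and 35.5 CPM without, and hashtags 2 and 4 of experiment 2 had 34.3 and 35.2 CPM with and 30.5 and 29.9 CPM without. Of the other surface genes, 11 and 13 passed the minimum in experiments 1 and 2. Il7r was at least 2-fold higher with Il2ra in both experiments (5.04 and 3.61) and Cd3e in experiment 2 (5.22), and none was at least 2-fold lower. In cells without Il2ra, Il7r had a median of 4.42 CPM in experiment 1 and Cd3e 2.82 CPM in experiment 2. Both lie under 5 CPM, so these 2 ratios are in part fixed by the minimum.

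Few genes of any kind differed between cells with and without a Kit UMI, and the members shared this. None of the 9 members past the minimum was at least 2-fold apart by Kit in either experiment. The shares of all genes were 0% higher and 0.0798% lower in experiment 1, and 0% higher and 1.33% lower in experiment 2. Ratios ran from 0.788 (Epcam) to 1.23 (Cd7) in experiment 1 and from 0.623 (Cdh1) to 1.18 (Cd34) in experiment 2. The Cdh1 value was 1.06 under a stricter hashtag rule and 0.972 with at least 2 Kit UMIs. A cell without a UMI may still hold the transcript, so these classes are classes of detection.

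Crossing the 2 genes gives classes named like those used in sorting, but they are classes of detection. Kit detection divided the cells little, so the steps below mainly repeat the Il2ra split given above. Cells with Kit and no Il2ra made up 20.4% in experiment 1 and 16.9% in experiment 2, cells with both 26.0 and 11.7%, cells with Il2ra and no Kit 29.0 and 28.2%, and cells with neither 24.6 and 43.2%. The median level of Thy1 over the cultures of experiment 1 was 15.1 CPM with Kit alone, 119 with both and 143 with Il2ra alone. In experiment 2 it was 18.2, 123 and 180.1 CPM. Cd34 went from 209.7 over 94.4 to 85.3 CPM in experiment 1 and from 158 over 78.1 to 53.0 CPM in experiment 2. Cd44 went from 47.1 over 41.0 to 32.1 CPM and from 33.6 over 26.0 to 21.2 CPM. Epcam went from 3.37 over 28.6 to 37.9 CPM and from 2.03 over 31.7 to 52.6 CPM. Cells with neither transcript had 14.5 and 19.5 CPM of Thy1 and 203 and 156 CPM of Cd34, values near those of cells with Kit alone. Their Cd44 level was 45.9 CPM in experiment 1, and 42.8 CPM in experiment 2, above the 33.6 CPM of cells with Kit alone.

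The same division showed in single cells when detection of pairs of members was compared with that from independent detection within each culture, again at 10000 UMIs per cell. Of 45 pairs, 39 in experiment 1 and 44 in experiment 2 had at least 20 expected cells. In experiment 1, 9 pairs were found together more often than expected in 8 of 8 cultures and 7 less often, and in experiment 2, 9 and 8. Pairs of other genes were not counted, so these counts have no background and are not read as a trait of the members. Observed over expected ran from 0.388 to 1.96 and from 0.175 to 2.12.

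**Figure D3:**
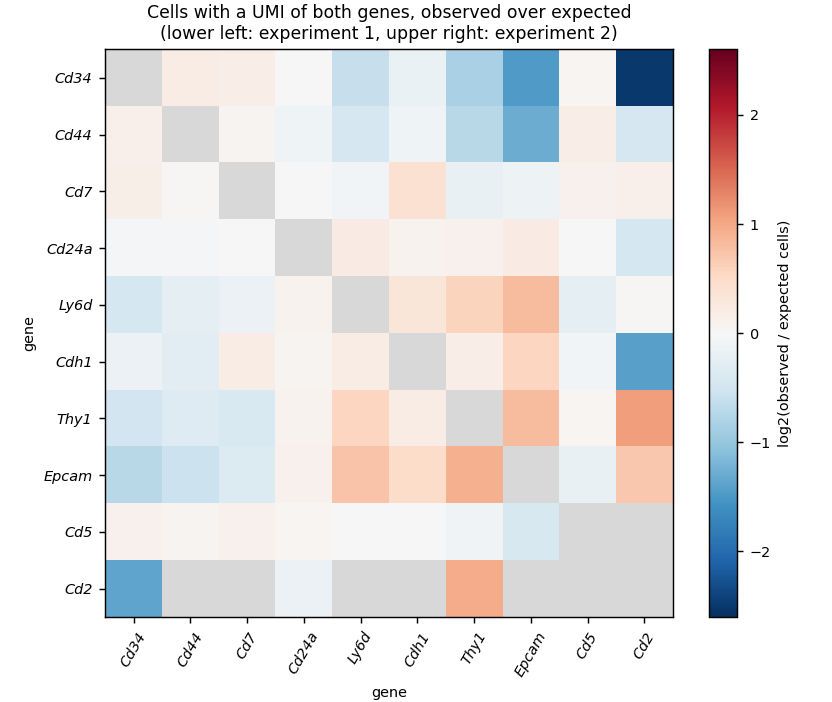
Cells with a UMI of both genes of a pair, observed over expected from independent detection within each culture (log2 colour scale; experiment 1 in the lower left triangle, experiment 2 in the upper right; grey, the diagonal and pairs with fewer than 20 expected cells). Thy1, Epcam and Ly6d were found together more often than expected and Cd34 and Cd44 with them less often.

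Thy1 and Epcam were found together in 853 cells of experiment 1 where 449 were expected, a ratio of 1.90, and at 1.77 in experiment 2. Ly6d with Epcam had 1.67 and 1.76, and Thy1 with Ly6d 1.47 and 1.498, each above 1 in 8 of 8 cultures of both experiments. Thy1 with Cd2 had 1.96 and 2.12, on 42 and 220 cells. Cd34 with Cd44 had 1.10 and 1.14, also above 1 in every culture. Cd34 was found with Epcam at 0.608 and 0.361 of the expected number and with Thy1 at 0.705 and 0.556, and Cd44 with Epcam at 0.682 and 0.409, all below 1 in 8 of 8 cultures. Cd34 with Cd2 had 0.388 and 0.175, on 13 and 19 cells. Ly6d with Cdh1 had 1.14 over all cells of experiment 1, with a median over cultures of 1.63 (above 1 in 8 of 8), and 1.24 in experiment 2, with a median of 1.45 (6 of 8). Cd24a with Ly6d had 1.06 and 1.15, a ratio with little room to rise, since Cd24a was detected in 49.9 to 89.8% of the thinned cells of a culture.

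To see in which cells the antigens lay, cells were clustered with the 10 genes left out, and clusters were named "-like" from marker lists that hold none of them. Levels in the clusters are a description with no test. Cd34 was highest in early progenitor-like clusters, at 345 CPM in cluster 11 of experiment 1 (342 cells) and 347 CPM in cluster 13 of experiment 2 (566 cells), with a UMI in 99.4 and 99.6% of their cells. Thy1 had 6.38 and 5.79 CPM there, Epcam 0.375 and 0.542 CPM and Cdh1 0.250 and 0.241 CPM. Only 2 cultures gave 20 or more cells to cluster 11, and 2 to cluster 13. In experiment 2 cluster 13 held 36.3% of the cells of hashtag 6 and 24.9% of hashtag 8. It held at most 0.506% of any other culture there. The other early progenitor-like cluster of experiment 1, cluster 6 with 1440 cells, had 196 CPM of Cd34, 17.3 CPM of Thy1 and 76.5 CPM of Cd7.

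**Figure D4:**
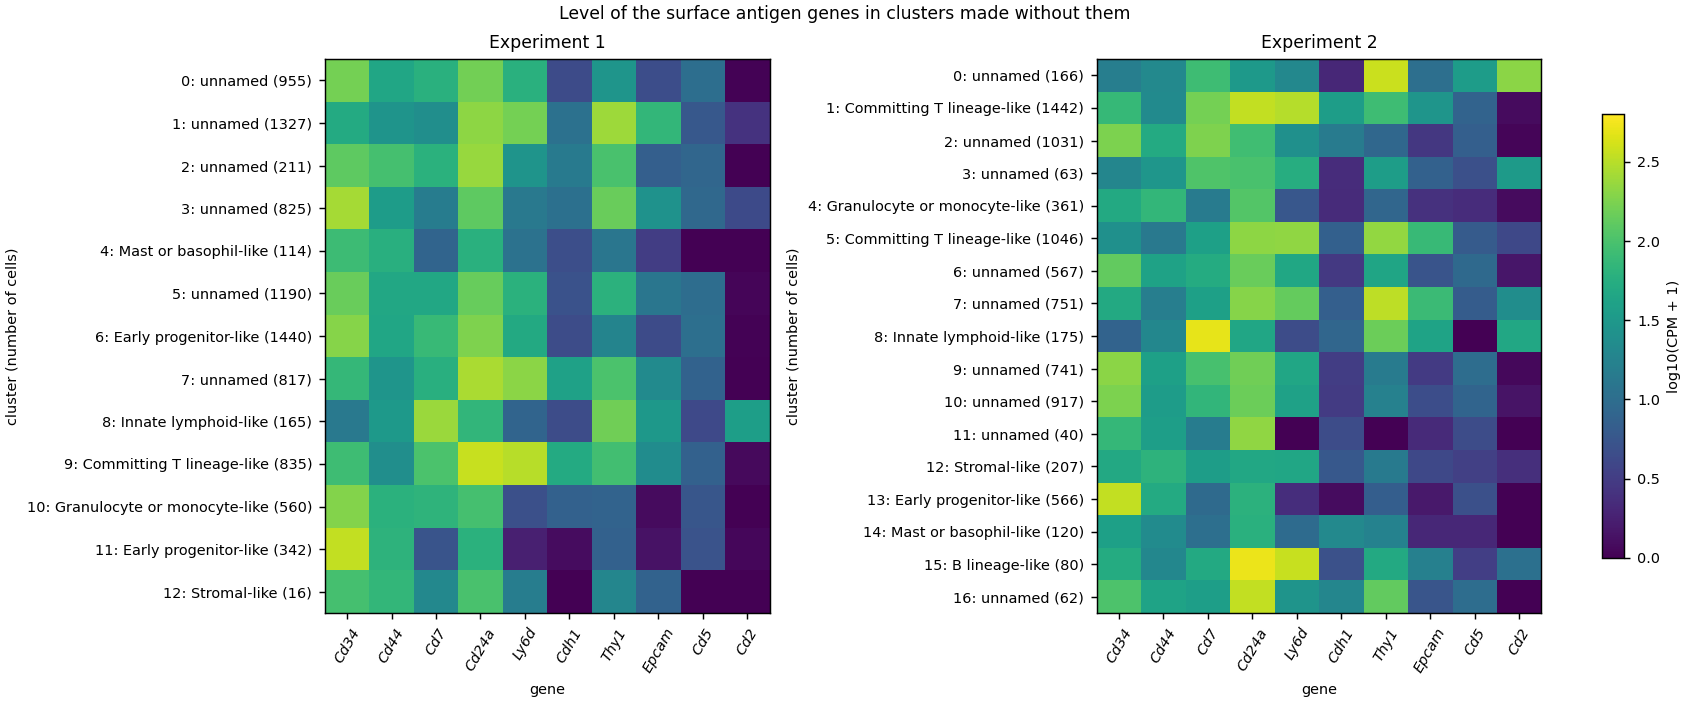
Level of each surface antigen gene (colour, log10 of CPM + 1) in the clusters of experiment 1 (left) and experiment 2 (right), which were made without these genes; the number of cells stands in parentheses. Cd34 peaks in the early progenitor-like clusters 11 and 13, and Cd7 peaks in the innate lymphoid-like clusters. Cdh1 is high with Ly6d and Cd24a in committing T lineage-like clusters 9 and 1 and in unnamed cluster 7 of experiment 1. In experiment 2, Ly6d and Cd24a are higher still in the B lineage-like cluster 15.

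Ly6d, Cd24a and Cdh1 were high together in committing T lineage-like cluster 9 of experiment 1 (835 cells; Zbtb16 was also among its leading genes) and cluster 1 of experiment 2 (1442 cells). Ly6d had 311 and 303 CPM there, Cd24a 368 and 347 CPM and Cdh1 50.1 and 35.4 CPM. In the other committing T lineage-like cluster of experiment 2, cluster 5 with 1046 cells, Cdh1 had 6.24 CPM, Epcam 75.4 CPM and Thy1 221 CPM. Cd24a and Ly6d were also high in a B lineage-like cluster of 80 cells in experiment 2, at 522 and 367 CPM, with Cdh1 at 4.01 CPM. Thy1 and Epcam were high together in the unnamed cluster 1 of experiment 1 (1327 cells), at 247 and 70.5 CPM, and in the unnamed cluster 7 of experiment 2 (751 cells), at 335 and 79.7 CPM.

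Cd7 was highest in the innate lymphoid-like clusters, at 235 CPM in 165 cells of experiment 1 and 500.5 CPM in 175 cells of experiment 2. These cells also had Thy1, at 155 and 146 CPM, and Cd2, at 36.3 and 46.2 CPM. Cd5 had 3.17 CPM in those of experiment 1 and was detected in 0 of 175 cells in experiment 2, which allows up to 2.09% of cells with a UMI (Clopper-Pearson) and sets no limit on cells that express the gene. The highest levels of Cd2 and Cd5 were in an unnamed cluster of 166 cells in experiment 2 led by Gzmc, Cd8b1, Ifng and Trac: 207 CPM of Cd2, 34.2 CPM of Cd5 and 376 CPM of Thy1. Its 979 Cd2 UMIs compare with 457 in cluster 7 and 148 in the innate lymphoid-like cluster. In early progenitor-like cluster 13, Cd2 was found in 0 of 566 cells, which allows up to 0.650% of cells with a UMI.

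Cd44 varied less by cluster than Cd34, and neither was limited to T-lineage precursors. Cd34 had 191 and 49.4 CPM in the granulocyte or monocyte-like clusters, 81.9 and 38.5 CPM in mast or basophil-like cells and 93.7 and 47.7 CPM in stromal-like cells. It had 266 CPM in unnamed cluster 3 of experiment 1 (825 cells). Cd44 had 60.5 and 69.9 CPM in the granulocyte or monocyte-like clusters (560 and 361 cells) and 70.2 and 63.8 CPM in stromal-like cells (16 and 207 cells). It had 63.3 CPM in early progenitor-like cluster 11, and 23.0 and 21.0 CPM in committing T lineage-like clusters 9 and 1. Detection in clusters of other lineages was taken as a measure of background. Over the granulocyte or monocyte-like, mast or basophil-like and stromal-like clusters Thy1 was found in 8.59 to 31.2% of cells, the highest share in the 16 stromal-like cells of experiment 1, and in 60.2 and 55.3% of committing T lineage-like clusters 9 and 1, at 19655 and 20414.5 UMIs. Ly6d was found in 2.50 to 25.1% of the cells of those other clusters, Epcam in 0.714 to 12.5% and Cdh1 in 0 to 25.0%, where median depth ran from 21644.5 to 49959 UMIs per cell. The 25.0% of Cdh1 was in mast or basophil-like cluster 14 of experiment 2, at 19.8 CPM, and may not be background. Shares within these ranges, such as those of Cdh1 in its low cultures, are not by themselves read as expression. Cdh1 was still uneven within some low cultures. Hashtag 7 of experiment 1 had 9.89 CPM in cells with Il2ra and 0.885 CPM in cells without. Over all cultures Cdh1 was higher with Il2ra in 7 of 8 in experiment 1 and in 5 of 8 in experiment 2.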

How the data were processed

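The 4 samples are an mRNA library and a hashtag library for each of 2 experiments. The authors deposited raw UMI counts per gene and cell and raw counts per hashtag and cell, without normalization. Per the submitters' processing notes Cell Ranger 3.0.0 and mm10/GRCm38 were used, and per the labels' protocols the chemistry was 10x Chromium v3. Whether hashtag counts are molecules or reads, and how barcodes were filtered, is not given in the sources used here.

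Barcodes passed with 500 or more genes and less than 10% of UMIs from mitochondrial genes (9332 of 9967 barcodes and 10214 of 10556). A hashtag was called when its count was at least 50 and at least 3 times that of the next. Barcodes with several hashtags were left out as doublets, and doublets within a culture remain. UMIs were summed per culture and divided by the total (CPM). Gene names come from the files, and 30934 of 31053 IDs were also in the name table. Positions and promoters are from RefSeq, GRCm38.p6.

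Cells were clustered with scanpy 1.11.5 (2000 variable genes, 30 components, resolution 0.5). A cluster took a name when at least 3 markers of 1 list were among its 50 leading genes, and at least 1 among its first 10. No other list could have as many among the 50 or more among the first 10. Named genes are the 10 members, 20 other surface genes and, for each member with a mean of at least 5 CPM, the 3 genes most correlated with it over 16 culture sums. Of the 20 other surface genes, 1 is not reported here. Members and lists were chosen with earlier results of these data known. No p-value is given, because no label ties a hashtag to a condition. Alternatives were other hashtag rules, among them HTODemux (Seurat 5.3.0), other cell filters, TMM scaling (edgeR 4.0.16), other minimum levels, other thinning and each hashtag left out in turn. The ratio between hashtags, the thinning and the interval of a ratio were tested on simulated data. The comparison of cells with and without Il2ra or Kit was not.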

Additional observations from a re-analysis of the deposited data

Results flagged for a closer look

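Barcodes whose leading hashtag had under 50 counts entered no comparison, and their Cd44 level was above that of every hashtagged culture of the same experiment. In experiment 1, 39 such barcodes had 80.6 CPM of Cd44 (61.2 to 104 CPM, exact 95% Poisson interval, 58 UMIs), where the cultures had 31.6 to 47.9 CPM. In experiment 2, 638 such barcodes had 61.2 CPM (57.0 to 65.6 CPM, 781 UMIs), where the cultures had 15.8 to 48.1 CPM. The other 9 genes were not above all cultures in either experiment. In experiment 1 those barcodes had 11.1 CPM of Thy1 and 12.5 CPM of Cd34, below every culture, and in experiment 2 they had 30.7 CPM of Thy1, 86.9 CPM of Cd34 and 70.1 CPM of Ly6d.

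No culture stood apart from the other 7 beyond Dixon's 95% limit in any of the 20 sets of 8 values checked. The value nearest to it was that of Epcam in hashtag 5 of experiment 1, at 37.3 CPM with 23.6 CPM in the next culture. This check sets a culture against the next in level. Cultures alike at an end therefore hide each other, as the highest of Cdh1 in experiment 1 did (33.8 and 33.1 CPM).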

How the results depend on the processing

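Of 127 recomputed counts of genes, 123 stayed within 1.5 times the value given. With no minimum level, 1 gene (Cd2) rather than 0 was at least 2-fold apart between experiments. In experiment 1, 5 genes rather than 3 (Thy1, Cd34, Ly6d, Cdh1 and Epcam) were at least 2-fold apart by Il2ra when at least 2 Il2ra UMIs were asked for, and 5 when cells were thinned to 5000 UMIs. In experiment 2, 1 gene (Cd2) rather than 0 was at least 2-fold apart by Kit with no thinning. The cause was not tested. With each hashtag left out in turn, the counts were 7 to 7 and 9 to 9 for the ratios between cultures of experiments 1 and 2, 0 to 0 between experiments, 3 to 4 and 4 to 4 by Il2ra and 0 to 0 by Kit in both. Leaving out clusters named as other lineages, a setting chosen after seeing the data, gave 7 and 8 between cultures, 4 and 5 by Il2ra (Cd34 added in experiment 1, Cd7 in experiment 2) and 0 by Kit. Of 1154 recomputed values of single genes, 965 moved by no more than counting error or the spread between cultures, 189 moved by more, and none of those called changed direction. TMM scaling moved all genes between experiments by 0.15 on the log2 scale. Depth limits Cd2, Cdh1 and Cd5, since single cultures of experiment 1 held as few as 2, 80 and 84 UMIs of them. No paired analysis was possible because each group is 1 sample and the hashtags carry no condition or replicate number.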
